A study of Mus musculus with 9 samples.

Results

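Type I interferon-stimulated genes are the antiviral genes that a cell switches on when interferon alpha or beta binds its receptor. They were described here in mouse macrophages that had been grown with sensory neurons, with transforming growth factor beta (TGF-β) or alone. The members were chosen by gene symbol: every Oas, numbered Ifit, numbered Ifi and numbered Slfn gene, Mx1 and Mx2, and 16 single genes from Isg15 and Usp18 to Rsad2 and Bst2. This gave 51 of the 24607 genes in the deposited table. Of the 51, 46 had a normalized count of at least 10 in at least 3 of the 9 libraries and were tested. The other 5 (Oas1e, Oas1d, Slfn5os, Slfn14 and Ifi27l2b) had at most 15.8 normalized counts in any library.

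All 9 libraries came from bone marrow-derived macrophages of CX3CR1-gfp/+ mice, in which green fluorescent protein replaces 1 copy of the fractalkine receptor gene, so every group carries that allele. The cells were differentiated with macrophage colony-stimulating factor (M-CSF, 50 ng/ml), and the label for time reads 5 days in every group. In the first group the macrophages shared the dish with neurons of the dorsal root ganglion (DRG), the ganglion of the sensory nerves. The second group received 0.02 ng/ml TGF-β, and the monoculture group received neither. Each group has 3 libraries, and the design text names 3 mice as the source without saying whether each mouse served every group, so p-values measure the spread between these libraries. Age, and the cells that came along with the neurons, are not given in the sources used here. The sort before RNA extraction used the macrophage antigens CD11b and CD64. Itgam, the gene of CD11b, stood at 97997 to 107329 normalized counts in co-culture, 88127 to 90604 in the TGF-β libraries and 102238 to 126129 in monoculture. Macrophage markers, 6 in all, summed to 0.315 to 0.345% of normalized counts in co-culture, 0.275 to 0.320% in the TGF-β libraries and 0.327 to 0.366% in monoculture. 1 of the 6 rose and 1 fell in co-culture: Mertk, a receptor for dying cells, had 13103 to 18174 normalized counts in co-culture, 4235 to 5168 in the TGF-β libraries and 3002 to 3055 in monoculture and rose (log2 fold change against monoculture 2.37 ± 0.11, adjusted p = 1.91e-09 in limma), while Emr1, the F4/80 antigen, had 51235 to 62747 normalized counts in co-culture, 64384 to 69566 in the TGF-β libraries and 77584 to 99767 in monoculture and fell (-0.69 ± 0.11, adjusted p = 2.26e-04).

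Interferon alpha and beta signal through the receptor pair Ifnar1 and Ifnar2 and the kinases Jak1 and Tyk2. A complex that includes Stat2 and Irf9 then binds a DNA element called the interferon-stimulated response element (ISRE). The genes so induced include sensors of foreign RNA and DNA, enzymes that destroy or block viral RNA, and Irf7, the factor that amplifies interferon production. Macrophages are known to keep a low level of these genes running without infection, through interferon beta made at low levels. Because the measurement is of bulk RNA, fewer cells expressing a gene and less RNA per cell cannot be told apart.

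The ISRE was looked for in the promoters of the members, taken from RefSeq (GRCm38.p6) as 250 bases before to 50 bases after each gene's start. Promoters were matched for 35 of the 51 members. The other 16 are Ifi27l2a, Ifi27, Rtp4, Oas1d, Ifi204, Slfn10-ps, Parp14, Mx2, Dhx58, Oas2, Mx1, Usp18, Oas1e, Oas1b, Zbp1 and Ifi27l2b. Its core, written as GAAA, any 2 bases and GAAA again on either strand, was present in 18 of 35 member promoters (51.4%), against 1079 of 27025 genes of the promoter table (3.99%). Among members that were lower in co-culture than in monoculture the motif was in 16 of 28, and among members that passed no test there it was in 1 of 4, Ifi205. These are matches of letters and were not tested as binding sites.

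The 150 bases before the start are shown for 8 members picked by hand. Of these, 5 fell in co-culture (Oas3, Ifit1, Isg15, Rsad2 and Slfn9), 2 passed no test there (Slfn3 and Ifi30) and 1 rose (Bst2). The 8 do not show how often the motif goes with a fall. Cmpk2 (log2 fold change against monoculture -3.04), Oasl1 (-2.96) and Oasl2 (-2.69) fell without a match in their promoters. Ifi205, which passed no test, had 2 matches. Each printed window is written 5′ to 3′ on the gene's own strand, and capitals mark the ISRE letters on either strand.
Oas3: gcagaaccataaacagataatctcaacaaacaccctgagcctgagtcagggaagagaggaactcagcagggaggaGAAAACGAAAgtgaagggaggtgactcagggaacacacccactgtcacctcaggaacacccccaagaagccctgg
Ifit1: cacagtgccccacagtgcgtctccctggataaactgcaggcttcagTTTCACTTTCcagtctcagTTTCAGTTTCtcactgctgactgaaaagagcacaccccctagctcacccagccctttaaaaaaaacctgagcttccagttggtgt
Isg15: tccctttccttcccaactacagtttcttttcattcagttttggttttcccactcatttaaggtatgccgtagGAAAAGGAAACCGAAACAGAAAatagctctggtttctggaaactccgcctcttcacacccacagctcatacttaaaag
Rsad2: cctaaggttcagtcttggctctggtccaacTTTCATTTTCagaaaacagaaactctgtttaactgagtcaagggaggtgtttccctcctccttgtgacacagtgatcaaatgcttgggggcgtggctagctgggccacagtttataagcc
Slfn9: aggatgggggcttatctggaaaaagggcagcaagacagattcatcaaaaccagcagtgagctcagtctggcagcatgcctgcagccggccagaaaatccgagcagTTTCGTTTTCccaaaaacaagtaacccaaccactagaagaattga
Slfn3: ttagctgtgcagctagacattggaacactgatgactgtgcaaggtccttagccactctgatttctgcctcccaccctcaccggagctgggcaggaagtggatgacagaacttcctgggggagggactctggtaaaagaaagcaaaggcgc
Ifi30: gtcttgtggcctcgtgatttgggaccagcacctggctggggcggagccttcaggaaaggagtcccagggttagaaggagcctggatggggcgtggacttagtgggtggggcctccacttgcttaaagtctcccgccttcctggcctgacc
Bst2: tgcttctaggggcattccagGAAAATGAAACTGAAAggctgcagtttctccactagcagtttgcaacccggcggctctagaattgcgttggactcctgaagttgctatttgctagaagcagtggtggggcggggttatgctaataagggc
The windows lie at chr5:120777660-120777809 (minus strand) for Oas3, chr19:34640739-34640888 (plus strand) for Ifit1, chr4:156200819-156200968 (minus strand) for Isg15 and chr12:26456453-26456602 (minus strand) for Rsad2. They lie at chr11:82991831-82991980 (minus strand) for Slfn9, chr11:83191180-83191329 (plus strand) for Slfn3, chr8:70766664-70766813 (minus strand) for Ifi30 and chr8:71537473-71537622 (minus strand) for Bst2. Counted back from the start site, the match begins at -75 in Oas3, at -120 in Rsad2 and at -45 in Slfn9, and Ifit1 has matches at -104 and -85. Isg15 carries 3 overlapping matches, the first at -78 and the last at -66. Bst2, whose level moved the other way, carries 2 overlapping matches at -130 and -124. The Slfn3 and Ifi30 windows hold none.

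Depth ranged from 46.8 to 308.8 M reads (M, 1e6) per library, with 133.8 to 308.8 M in co-culture, 46.8 to 151.6 M in the TGF-β libraries and 73.4 to 135.6 M in monoculture. Co-culture was thus mostly deeper. Co-culture 1 (308.8 M) and 3 (166.1 M) were deeper than every library of the other groups. Co-culture 2 (133.8 M) lay below monoculture 3 (135.6 M) and TGF-β 1 (151.6 M). Values are normalized counts, that is reads divided by a size factor for each library, and 1 read was worth 0.346 to 2.27 of them. Log2 fold changes are of the value plus 10, given with the standard error, and understate the change of low genes. Markers of other cells were higher in co-culture, where all 5 tested fibroblast markers rose and Schwann cell and satellite glia markers gave 5 higher and 1 lower of 6. The summed values of 7 fibroblast markers were 5675 to 8156 in co-culture, 19.5 to 91.8 in the TGF-β libraries and 25.6 to 97.4 in monoculture. Those of 6 Schwann cell and satellite glia markers were 598 to 768 in co-culture, 152 to 258 in the TGF-β libraries and 144 to 260 in monoculture, with Ngfr at 0 in all 6 libraries outside co-culture. Those of 6 sensory neuron markers were 111 to 193 in co-culture, 15.3 to 39.8 in the TGF-β libraries and 19.6 to 73.1 in monoculture. Of these markers 2 were tested, and 1 rose. Most of the co-culture sum was Tubb3 (88.0, 87.5 and 102). Prph, Scn10a and Calca overlapped between co-culture and monoculture. Together with the Y-linked gene Ddx3y, at 57.8 and 58.5 in co-culture 2 and 3 (female by Xist) and at 0 in the female libraries of the other groups, these values go with every co-culture comparison that follows. Their part in the results was not tested.

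Co-culture with DRG neurons went with lower levels of most interferon-stimulated genes. Of the 46 tested members 38 fell against monoculture, 1 rose and 7 did not pass the test, where fell and rose mean a Benjamini-Hochberg adjusted p under 0.05 in limma over all 16328 tested genes. That is 82.6% of the tested members called lower, whereas of all tested genes 30.8% were called, 15.0% lower and 15.9% higher. The median log2 fold change was -1.04 over the members and 0.03 over all tested genes. In 40 members every co-culture library lay below every monoculture library, which held for 21.7% of all tested genes. In 1 member, Bst2, every co-culture library lay above, against 23.3% of all tested genes. In 27 members the co-culture mean was under 50% of the monoculture mean, and in 13 it was under 25%. The same shares were not counted over all tested genes. The 27 include genes of few reads, such as Slfn1 (means 4.77 in co-culture and 32.7 in monoculture) and Ifi205 (10.4 and 29.0). All members together made up 0.0923 to 0.1002% of all normalized counts in co-culture, 0.128 to 0.148% in the TGF-β libraries and 0.145 to 0.180% in monoculture.

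**Figure D1:**
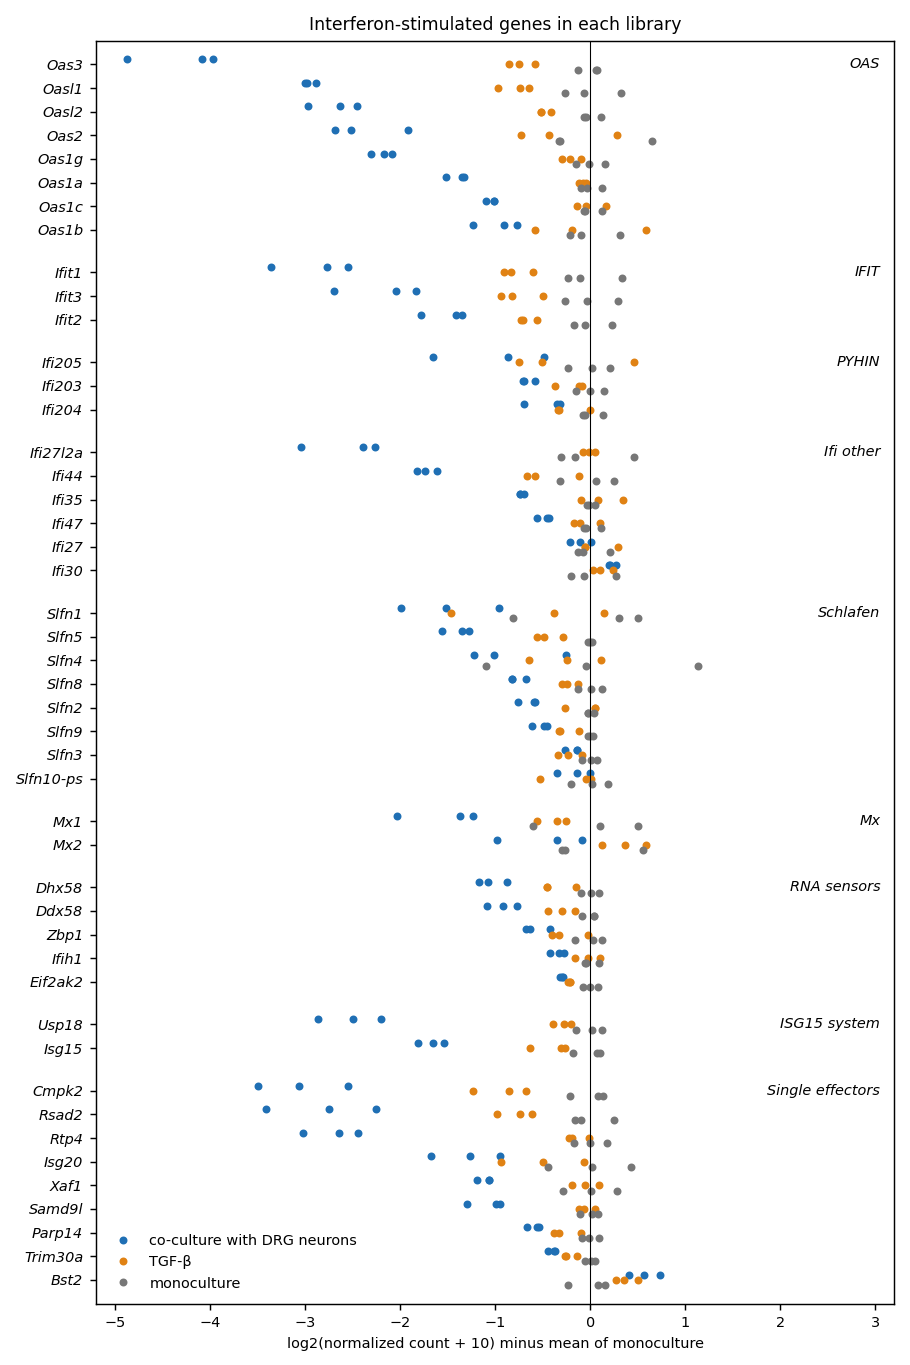
Each point is 1 library; the axis is log2 of the normalized count plus 10, minus the monoculture mean, for the 46 tested members grouped by subfamily. Co-culture points lie left of the monoculture points in 40 members, while TGF-β points lie among the monoculture points for most members.

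Leaving out any 1 library left 34 to 39 members lower in co-culture. The members that changed call are named with their groups below.

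The sensors that start the response were lower in co-culture by modest amounts. All 5 RNA sensors fell (median log2 fold change -0.57). Ddx58, which encodes RIG-I, the sensor of viral RNA ends, had 2926, 2349 and 2644 normalized counts in co-culture, 4457, 3662 and 4070.1 with TGF-β and 5119.5, 4716 and 5145 in monoculture. Every co-culture library was below every other library, and the log2 fold change was -0.92 ± 0.10, adjusted p = 6.29e-06. Dhx58 (LGP2, a regulator of RIG-I and MDA5) fell by 1.04 ± 0.11 on the log2 scale, Zbp1 (a sensor of Z-form nucleic acid that can start cell death) by 0.57 ± 0.14 and Ifih1 (MDA5, the sensor of long double-stranded RNA) by 0.34 ± 0.09. Eif2ak2, the kinase PKR that stops translation when it binds double-stranded RNA, had the smallest change of the 5, with 5939, 5814 and 5895 normalized counts in co-culture, 6252, 6197 and 6290.3 with TGF-β and 7251, 6882 and 7688 in monoculture. Its groups did not overlap and the log2 fold change was -0.30 ± 0.07, adjusted p = 0.00500. Ifih1 did not pass without co-culture 2 (adjusted p = 0.0569), Zbp1 did not without replicate 3 of every group (0.0514), and Eif2ak2 did not with values scaled to CPM, reads per 1e6 reads (adjusted p = 0.0543).

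The PYHIN genes, which encode DNA-binding proteins of the interferon response on chromosome 1, fell in 2 of 3. Ifi203 had 2065, 1907 and 1899.6 normalized counts in co-culture, 2851, 2397 and 2909 with TGF-β and 3099.7, 2795 and 3429.6 in monoculture, a log2 fold change of -0.66 ± 0.10, adjusted p = 1.90e-04. Ifi204, a DNA sensor that works with STING, had 4625, 3626 and 4718 normalized counts in co-culture, 5901, 4698 and 4665 with TGF-β and 5665, 5602 and 6462 in monoculture, and the change was -0.46 ± 0.12, adjusted p = 0.00867. In both genes the co-culture libraries were below all monoculture libraries, and in Ifi203 below all TGF-β libraries as well. Ifi204 did not pass without co-culture 2 (adjusted p = 0.0522). Ifi205 was close to the detection limit, with 17.7, 2.34 and 11.3 normalized counts in co-culture, 17.3, 13.1 and 43.2 with TGF-β and 29.2, 23.0 and 34.9 in monoculture, and did not pass (-0.999 ± 0.39, 95% interval -1.84 to -0.16, adjusted p = 0.0699), though it did without TGF-β 3, which enters the shared spread (adjusted p = 0.0425).

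Both genes of the ISG15 system fell strongly. Isg15 encodes a ubiquitin-like protein that is attached to other proteins during infection, and it had 177, 145 and 163 normalized counts in co-culture, 428, 441 and 341 with TGF-β and 562, 469.6 and 576 in monoculture. The mean in co-culture was 30.2% of that in monoculture, and every co-culture library was below every other library (-1.67 ± 0.17, adjusted p = 3.39e-06). Usp18, which removes ISG15 from its targets and also blocks the interferon receptor through Ifnar2, had 114, 86.0 and 142 normalized counts in co-culture, 566, 597 and 520.4 with TGF-β and 697, 620.4 and 753 in monoculture. The co-culture libraries again stood apart, at 16.5% of the monoculture mean (-2.52 ± 0.18, adjusted p = 1.07e-07). Ube2l6, the conjugating enzyme for ISG15 and no member by symbol, fell by 2.13 ± 0.09 (adjusted p = 9.75e-10).

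The oligoadenylate synthetases fell without exception among the 8 that were tested, with the largest subfamily median, -2.28. These enzymes sense double-stranded RNA and make oligoadenylates that switch on RNase L, which then degrades RNA. Oas3, known from human cells as the main activator of RNase L (mm10, chromosome 5, 120753098 to 120777661, minus strand), had 293, 152 and 269.8 normalized counts in co-culture, 2812, 2620.1 and 3152 with TGF-β and 4334, 4958 and 4915 in monoculture. All co-culture libraries were far below the others, and the co-culture mean was 5.03% of the monoculture mean (-4.31 ± 0.20, adjusted p = 1.13e-08), the largest decrease among the members. Oasl1, known in mouse for holding back translation of Irf7, had 64.4, 65.6 and 71.1 normalized counts in co-culture, 347, 295 and 373 with TGF-β and 487, 563 and 738 in monoculture (-2.96 ± 0.19, adjusted p = 4.14e-08). Oasl2 had 1221, 963 and 1381 normalized counts in co-culture, 5302, 5306 and 5734 with TGF-β and 7388, 7286 and 8223 in monoculture (-2.69 ± 0.11, adjusted p = 8.07e-10). In both Oasl genes the co-culture values were a small part of those in every other library.

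Among the remaining synthetases, Oas1a had 1814, 1608 and 1842 normalized counts in co-culture, 4261, 4401 and 4488 with TGF-β and 4519, 4344 and 5065 in monoculture (-1.40 ± 0.09, adjusted p = 3.08e-08). TGF-β and monoculture libraries overlapped there and co-culture libraries did not. Oas1g fell by 2.18 ± 0.13 and Oas1c by 1.04 ± 0.14. Oas2 had 759.8, 443 and 500.3 normalized counts in co-culture, 2155, 1755 and 3536 with TGF-β and 2304, 2329.8 and 4562 in monoculture (-2.37 ± 0.36, adjusted p = 0.00135), with replicate 3 high both in monoculture and with TGF-β but not in co-culture. Oas1b, in which most laboratory strains carry a truncating allele and which the annotation lists as a polymorphic pseudogene, had 115, 81.3 and 104 normalized counts in co-culture, 177, 133 and 311 with TGF-β and 175, 189.9 and 256 in monoculture (-0.97 ± 0.28, adjusted p = 0.0177). It did not pass without co-culture 2 (adjusted p = 0.0765) or without monoculture 3 (0.0727). The Oas1 genes are close copies of one another, and how reads shared between them were assigned is not stated.

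All 3 Ifit genes, whose products bind viral RNA and block its translation, fell. Ifit1 (mm10, chromosome 19, 34640871 to 34650009, plus strand) had 137, 73.5 and 116 normalized counts in co-culture, 556, 472 and 448 with TGF-β and 723, 787 and 1072 in monoculture, and the mean in co-culture was 12.6% of that in monoculture (-2.89 ± 0.22, adjusted p = 1.74e-07). Ifit3 had 153, 93.8 and 179 normalized counts in co-culture, 468, 371 and 341 with TGF-β and 552, 648 and 815 in monoculture (-2.19 ± 0.23, adjusted p = 4.70e-06). Ifit2 had the smallest change of the 3, with 843, 623 and 803 normalized counts in co-culture, 1459, 1322 and 1302 with TGF-β and 1914, 2078 and 2527 in monoculture (-1.51 ± 0.13, adjusted p = 9.27e-07). The groups kept 1 order in all 3 genes, with every co-culture library below every TGF-β library and every TGF-β library below every monoculture library.

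**Figure D2:**
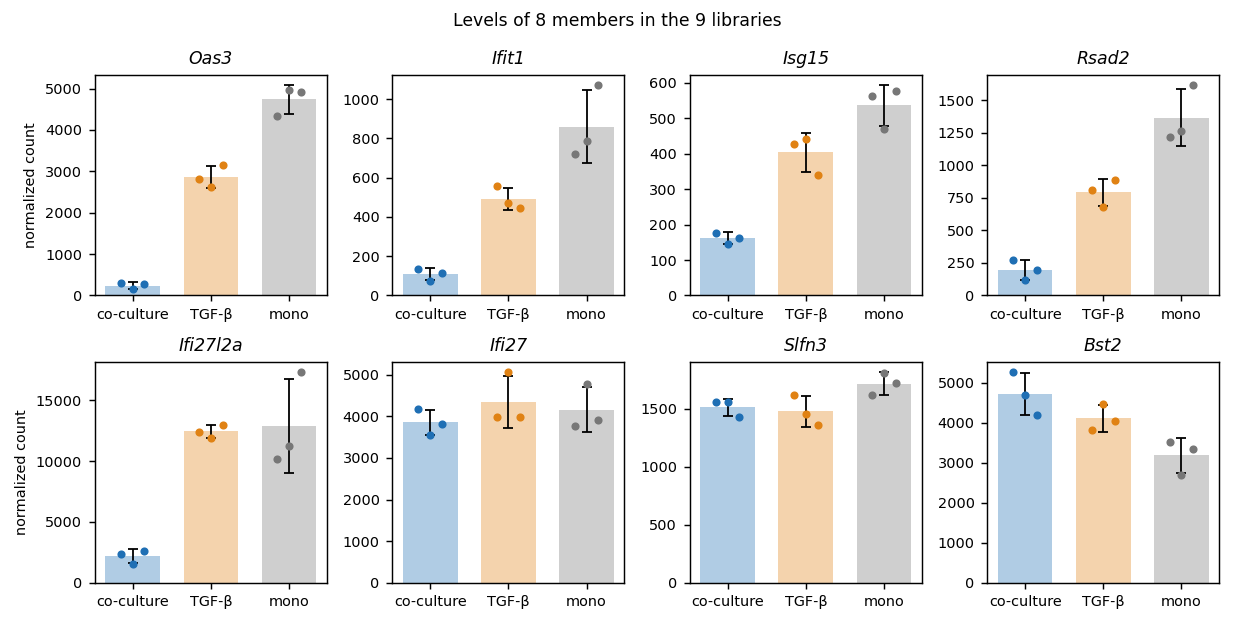
Bars show the mean and SD of the normalized count (n = 3) and points the libraries, for co-culture, TGF-β and monoculture from left to right. Oas3, Ifit1, Isg15, Rsad2 and Ifi27l2a are lowest in co-culture, Ifi27 and Slfn3 are close between groups, and Bst2 is highest in co-culture with 4201 to 5264.

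Antiviral effectors encoded by single genes fell in 8 of 9. Rsad2, which encodes viperin, an enzyme that makes a chain-terminating nucleotide, had 276, 119 and 193 normalized counts in co-culture, 810.1, 679.6 and 884 with TGF-β and 1216, 1265 and 1616 in monoculture (-2.80 ± 0.24, adjusted p = 1.56e-06). Its neighbour Cmpk2, a nucleotide kinase that supplies the precursor of that nucleotide, had 182, 89.9 and 125 normalized counts in co-culture, 697, 612 and 470.4 with TGF-β and 959.6, 1225 and 1182 in monoculture (-3.04 ± 0.22, adjusted p = 1.32e-07). The gene pair lies on chromosome 12 in opposite orientation, Rsad2 at 26442746 to 26456452 and Cmpk2 at 26469204 to 26479837 (mm10). Both had their lowest co-culture value in replicate 2, as was the case in 33 of the 46 tested members. Rtp4, a chaperone of membrane receptors that also binds viral RNA, had 493, 328 and 427 normalized counts in co-culture, 2326, 2697 and 2386 with TGF-β and 2725, 2418 and 3071 in monoculture (-2.70 ± 0.14, adjusted p = 5.43e-09). Here monoculture and TGF-β overlapped and co-culture stood alone.

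Other effectors changed by smaller amounts. Samd9l, which restrains translation and growth, had 4965, 4033 and 5130.1 normalized counts in co-culture, 10288, 9468 and 9117 with TGF-β and 10059, 9205 and 10514 in monoculture (-1.08 ± 0.10, adjusted p = 1.18e-06). Parp14, an ADP-ribosyltransferase, had 7226, 7354 and 6706 normalized counts in co-culture, 8473, 8168 and 9994 with TGF-β and 10536, 10058 and 11396 in monoculture (-0.59 ± 0.09, adjusted p = 1.68e-04). Xaf1, which promotes cell death, fell by 1.11 ± 0.14, the exonuclease gene Isg20 by 1.29 ± 0.32, and Trim30a, a regulator of Toll-like receptor signaling in mouse, by 0.40 ± 0.07. In all 5 the co-culture libraries lay below all monoculture libraries.

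Bst2 was the exception among the members. It encodes tetherin, which holds budding virus particles at the cell surface (mm10, chromosome 8, 71534255 to 71537456, minus strand). It had 5264, 4699 and 4201 normalized counts in co-culture, 3820.0, 4475 and 4038 with TGF-β and 3515, 2691 and 3346 in monoculture. Every library of co-culture and of TGF-β was above every monoculture library, and the co-culture mean was 148% of the monoculture mean (0.57 ± 0.11, 95% interval 0.32 to 0.82, adjusted p = 0.00144). With TGF-β the change did not pass (0.37 ± 0.11, 95% interval 0.13 to 0.62, adjusted p = 0.112). Bst2 also marks plasmacytoid dendritic cells. Of their other listed markers Siglech was at 0 to 5.47 in all libraries and Ccr9 at most 17.7, while Tcf4, which other cells express too, was higher in co-culture (11014 to 12161) than with TGF-β (6525 to 8717) or in monoculture (7102 to 7378).

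The Mx genes, dynamin-like GTPases that trap viral nucleocapsids, were low and variable. The annotation lists Mx2, like Oas1b, as a polymorphic pseudogene. Mx1 had 123, 111 and 66.4 normalized counts in co-culture, 252, 201 and 234 with TGF-β and 195, 326 and 431 in monoculture and fell (-1.54 ± 0.28, adjusted p = 7.68e-04). Mx2 had 135, 68.0 and 111 normalized counts in co-culture, 221, 157 and 189 with TGF-β and 115, 119 and 217 in monoculture and did not pass (-0.47 ± 0.29, 95% interval -1.10 to 0.15, adjusted p = 0.254). Mx2 was higher with TGF-β than in co-culture in every library, without passing (co-culture against TGF-β -0.83 ± 0.29, adjusted p = 0.0518). It passed there in 6 of the alternative analyses, among them without co-culture 1 (adjusted p = 0.0419), without monoculture 1 (0.0499) and without monoculture 3 (0.0337).

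The Schlafen genes, known for growth control and the quiescence of immune cells, split within a single cluster on chromosome 11. Of the 8 tested, 5 fell and 3 did not pass. Slfn5 (mm10, chromosome 11, 82951349 to 82964840, plus strand) had 2896, 2365 and 2734 normalized counts in co-culture, 4986, 4759 and 5745 with TGF-β and 7104, 6888 and 7005 in monoculture (-1.39 ± 0.09, adjusted p = 6.23e-08). Slfn2, a gene needed for the quiescence of T cells in mouse, had 16164, 14299 and 16044 normalized counts in co-culture, 25072, 25027 and 20139 with TGF-β and 23879.8, 24938 and 23930.4 in monoculture (-0.65 ± 0.10, adjusted p = 1.13e-04). Slfn9 had 7668, 8397 and 8566 normalized counts in co-culture, 9345, 9399 and 10781 with TGF-β and 11544, 11690.5 and 11959 in monoculture (-0.52 ± 0.08, adjusted p = 2.05e-04), and Slfn8 fell by 0.77 ± 0.09. In these 4 genes co-culture and monoculture did not overlap.

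Slfn3 lies in the same cluster (mm10, chromosome 11, 83191330 to 83215154, plus strand) and had 1558, 1557 and 1429.9 normalized counts in co-culture, 1622, 1455 and 1359 with TGF-β and 1617, 1811 and 1726 in monoculture. Its co-culture libraries were below all monoculture libraries, but the difference was small and did not pass (-0.18 ± 0.10, 95% interval -0.39 to 0.04, adjusted p = 0.203). Slfn10-ps, a transcribed pseudogene, had 3892, 3062 and 3551 normalized counts in co-culture, 3796, 2712 and 3938 with TGF-β and 3957, 3404 and 4444 in monoculture and did not pass (-0.17 ± 0.15, 95% interval -0.48 to 0.15, adjusted p = 0.442). Slfn4 was low and uneven, with 71.7, 38.3 and 31.9 normalized counts in co-culture, 95.4, 72.1 and 52.3 with TGF-β and 84.4, 35.7 and 205 in monoculture (-0.83 ± 0.48, 95% interval -1.87 to 0.21, adjusted p = 0.225). It passed without monoculture 2 (adjusted p = 0.0282). Slfn1 was called lower at very low counts, 10.4, 3.91 and 0 normalized counts in co-culture, 33.8, 4.37 and 20.5 with TGF-β and 39.0, 12.7 and 46.5 in monoculture (-1.49 ± 0.47, adjusted p = 0.0260), and did not pass when co-culture 2 or 3 or monoculture 1 or 3 was left out (adjusted p 0.0685 to 0.0993). Slfn8, Slfn9 and Slfn10-ps are close copies, and the assignment of shared reads is not stated.

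The remaining Ifi genes, which share a name and not a family, fell in 4 of 6. Ifi27l2a, which encodes a small hydrophobic protein, had 2396, 1519.8 and 2612 normalized counts in co-culture, 12438, 11916 and 12994 with TGF-β and 10163, 11257 and 17311 in monoculture, and the co-culture mean was 16.9% of the monoculture mean (-2.56 ± 0.24, adjusted p = 4.21e-05). Ifi27, the adjacent gene of the same type, on chromosome 12 (mm10, 103434211 to 103440239; Ifi27l2a at 103442167 to 103443680), had 4169, 3559 and 3827 normalized counts in co-culture, 3973, 5057 and 3977 with TGF-β and 3772, 4776 and 3919 in monoculture. All 3 groups overlapped in Ifi27 and the change did not pass (-0.10 ± 0.12, 95% interval -0.35 to 0.14, adjusted p = 0.548). Ifi44 fell by 1.72 ± 0.26, Ifi35 by 0.73 ± 0.11 and Ifi47, a GTPase best known from the interferon gamma response, by 0.48 ± 0.11.

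Ifi30 encodes the lysosomal thiol reductase GILT, which prepares antigens and is induced by interferon gamma. It had 12247, 11607 and 11741 normalized counts in co-culture, 10915, 11968 and 10315 with TGF-β and 12184, 9683 and 8806 in monoculture, and the groups overlapped (0.23 ± 0.11, 95% interval -0.00 to 0.46, adjusted p = 0.131). It was called higher in co-culture without monoculture 1 (adjusted p = 0.0105) and with values scaled to CPM (0.0461).

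**Figure D3:**
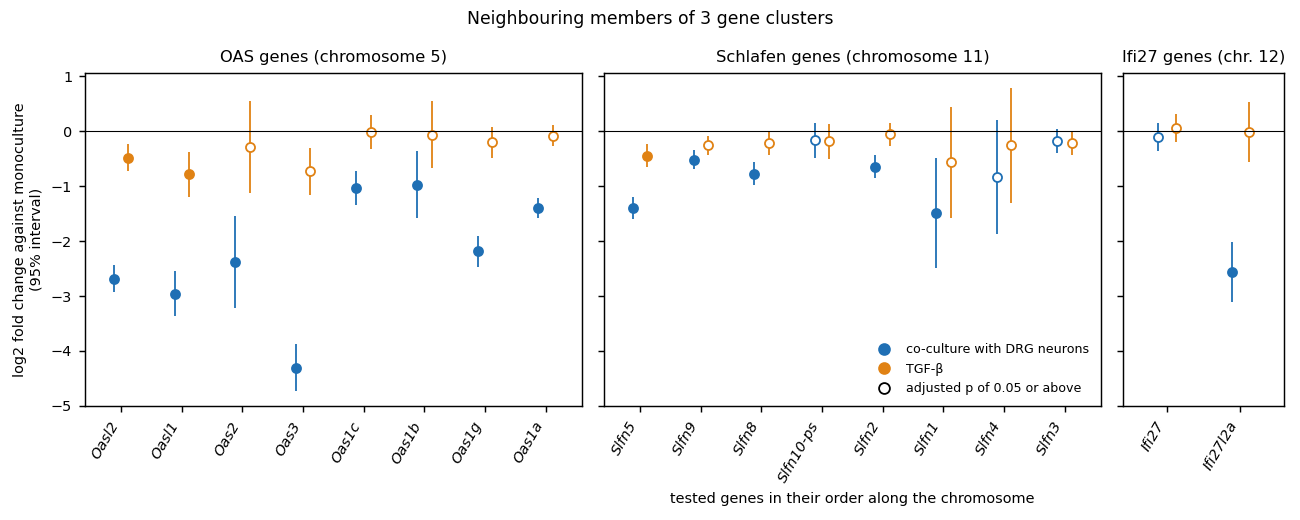
Log2 fold changes against monoculture with 95% intervals for tested Oas genes (chromosome 5), the Schlafen cluster (chromosome 11) and the Ifi27 cluster (chromosome 12), in chromosomal order. Open points did not pass. Oasl2 and Oasl1 (from position 114896936) lie apart from the cluster of the other Oas genes (from 120730333). Co-culture changes differ between neighbours, for example -2.56 for Ifi27l2a and -0.10 for Ifi27.

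Levels between genes can be compared per kilobase of exon. In monoculture the mean normalized count per kilobase was 27884 ± 8317 for Ifi27l2a, 14573 ± 359 for Slfn2, 10423 ± 1787 for Ifi30, 3526 ± 482 for Bst2 and 2833 ± 369.7 for Ifi27 (mean ± SD, n = 3). In co-culture the same scale gave 12095 ± 344 for Ifi30, 9316 ± 627 for Slfn2, 5228 ± 589 for Bst2 and 4699.5 ± 1249 for Ifi27l2a. The highest member per length was thus Ifi27l2a in monoculture and Ifi30 in co-culture.

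TGF-β at 0.02 ng/ml went with smaller differences from monoculture. Of the 46 tested members 5 fell, 0 rose and 41 did not pass. That is 10.9% of the tested members called lower, whereas of all tested genes 2.52% were called, 1.39% lower and 1.13% higher. The members that fell were Ifit2 (-0.66 ± 0.13, adjusted p = 0.0170), Slfn5 (-0.44 ± 0.09, adjusted p = 0.0235), Oasl2 (-0.48 ± 0.11, adjusted p = 0.0410), Cmpk2 (-0.92 ± 0.22, adjusted p = 0.0471) and Oasl1 (-0.78 ± 0.19, adjusted p = 0.0487). In these 5 genes the TGF-β libraries, given above, lay between the co-culture and the monoculture libraries with no overlap.

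Most other members were also below monoculture on average, without passing. The log2 fold change was negative in 41 of 46, with a median of -0.24 over the members and -0.01 over all tested genes. In 17 members (37.0%) every TGF-β library was below every monoculture library, against 9.64% of all tested genes. In 1, again Bst2, every TGF-β library was above, against 7.27% of all tested genes. At an unadjusted p under 0.05 in limma there were 18 lower members and 1 higher, Bst2. The share of all tested genes at that threshold was not counted, so these counts have no background to be read against. Oas3 (log2 fold change -0.73 ± 0.20, adjusted p = 0.0840) and Ifit1 (-0.78 ± 0.22, adjusted p = 0.0840) were among those that did not pass, as were Rsad2 (-0.78 ± 0.24, adjusted p = 0.129) and Isg15 (-0.40 ± 0.17, adjusted p = 0.273). Without co-culture 2, which enters the shared spread, Oas3 (adjusted p = 0.00281), Ifit1 (0.0419) and Rsad2 (0.0305) passed. DESeq2 also called these genes (adjusted p = 0.00209 for Oas3, 0.00944 for Ifit1 and 0.0194 for Rsad2), as did the fit of the groups compared alone (0.00203, 0.0340 and 0.0147 in the same order). Oas3 passed with log2 of the value plus 50 as well (0.0436). Other genes with large co-culture decreases were close to the monoculture level with TGF-β, among them Rtp4 (-0.14 ± 0.14, 95% interval -0.45 to 0.16), Ifi27l2a (-0.01 ± 0.24, 95% interval -0.56 to 0.53) and Oas1a (-0.08 ± 0.09, 95% interval -0.27 to 0.11).

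The 5 calls depended on single libraries. None of them passed without monoculture 2, monoculture 3, TGF-β 1 or TGF-β 2, where 0 members were called, and 2 passed without monoculture 1. The count was 3 without co-culture 1 or 3, and 7 without co-culture 2 or TGF-β 3. On the reads recovered from the values, edgeR called 4 members lower and 0 higher, and DESeq2 9 lower and 0 higher.

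**Figure D4:**
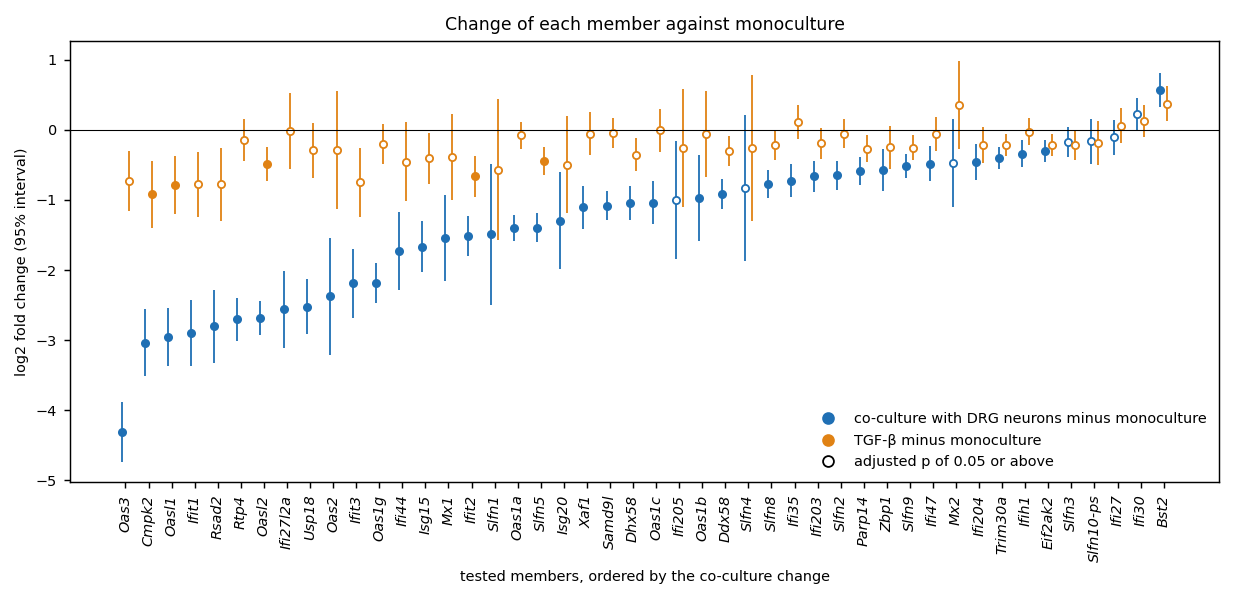
Log2 fold change with 95% interval of the 46 tested members against monoculture, ordered by the co-culture change, from Oas3 (-4.31) to Bst2 (0.57); open points had an adjusted p of 0.05 or above. TGF-β points lie between -0.92 and 0.37, nearer to 0 than most co-culture points.

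The difference between co-culture and TGF-β was tested in the same fit. Of the 46 members 32 were lower in co-culture than with TGF-β, 0 were higher and 14 did not pass. That is 69.6% called lower, whereas of all tested genes 25.3% were called, 11.9% lower and 13.4% higher. In 37 members every co-culture library was below every TGF-β library, which held for 19.8% of all tested genes. At an unadjusted p under 0.05 in limma, 0 members were higher in co-culture, and the share of all tested genes was not counted at that threshold. All 8 Oas genes (median -2.03), all 3 Ifit genes (-1.44) and both ISG15 genes (-1.75) were lower. Oas3 had the largest difference (-3.58 ± 0.20, adjusted p = 1.14e-07), followed by Rtp4 (-2.56 ± 0.14, adjusted p = 2.38e-08) and Ifi27l2a (-2.55 ± 0.24, adjusted p = 6.47e-05).

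By the calls of the 3 comparisons, 5 members were lower in co-culture than in both other groups and lower with TGF-β than in monoculture. Another 27 were lower in co-culture than in both other groups with no call between TGF-β and monoculture. A further 6 were lower in co-culture than in monoculture only, Bst2 was higher there only, and 7 had no call. The comparisons against monoculture share their control libraries. Leaving out 1 library ended some calls of co-culture against TGF-β, at adjusted p values up to 0.153. Parp14 (-0.32 ± 0.09, adjusted p = 0.0185) was lost without co-culture 3 or TGF-β 3, and Slfn9 (-0.26 ± 0.08, adjusted p = 0.0307) without co-culture 1 or 2 or TGF-β 3. Ifi47 (-0.42 ± 0.11, adjusted p = 0.0137) was lost without co-culture 3 or TGF-β 2, Ifih1 (-0.31 ± 0.09, adjusted p = 0.0204) without co-culture 2 or TGF-β 1 or 2, and Oas1b (-0.91 ± 0.28, adjusted p = 0.0304) without co-culture 2 or 3 or TGF-β 1 or 3. Isg20 did not pass (-0.79 ± 0.32, adjusted p = 0.0904) but did without TGF-β 3 (0.0422).

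Genes around the members were counted in the same way, beside 15.9% higher and 15.0% lower of all tested genes in co-culture against monoculture. Of 8 tested receptor and kinase genes 3 rose in co-culture and 0 fell. Ifnar2 rose by 0.23 ± 0.07 (adjusted p = 0.0209), Jak2 by 0.35 ± 0.10 and the interferon gamma receptor chain Ifngr2 by 0.46 ± 0.07, while Ifnar1 did not pass (0.04 ± 0.08, 95% interval -0.13 to 0.21, adjusted p = 0.750). Of 8 STAT and IRF factors reported here 4 fell and 2 rose. Irf7 had 341, 302 and 357 normalized counts in co-culture, 1129, 1176 and 1177 with TGF-β and 1387, 1264 and 1924 in monoculture (-2.14 ± 0.15, adjusted p = 7.26e-08), with all co-culture libraries far below the rest. Irf9, the DNA-binding part of the complex that reads the ISRE, had 3899, 3430.4 and 3648 normalized counts in co-culture, 5553, 5655 and 5522 with TGF-β and 5853, 6031 and 6442 in monoculture (-0.74 ± 0.08, adjusted p = 4.98e-06). Its partner Stat2 fell by 0.31 ± 0.09 and Irf5 by 0.48 ± 0.08. Irf1 (0.44 ± 0.11) and Irf8 (0.27 ± 0.07), which serve the interferon gamma response and the myeloid lineage, rose. Without monoculture 2 or co-culture 1 the receptor and kinase list gave 1 higher gene, and without co-culture 1 the STAT and IRF list gave 1.

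**Figure D5:**
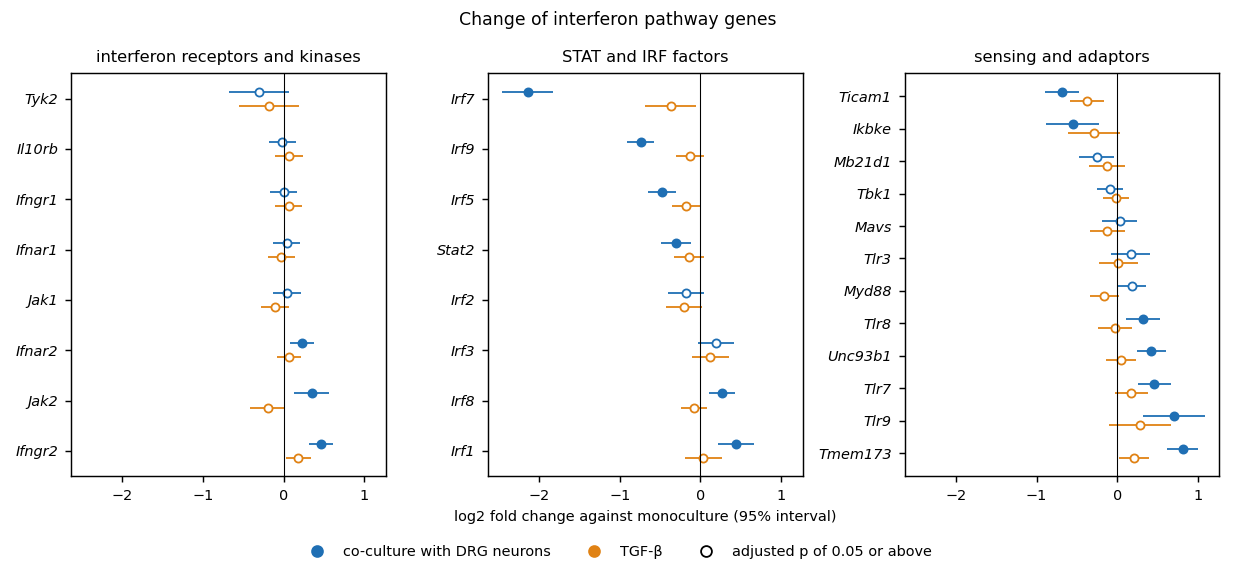
Log2 fold changes against monoculture with 95% intervals for receptors and kinases, STAT and IRF factors, and sensors and adaptors; filled points passed at adjusted p under 0.05. Irf7 (-2.14) and Tmem173 (0.81) are the co-culture changes farthest from 0, and every TGF-β point is open.

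Of 12 tested sensing and adaptor genes, which lead to interferon production, 5 rose and 2 fell in co-culture, against 15.9% higher and 15.0% lower over all tested genes. Tmem173, which encodes STING, rose by 0.81 ± 0.09 (adjusted p = 6.26e-06), the endosomal receptor genes Tlr7 by 0.46 ± 0.09, Tlr8 by 0.32 ± 0.10 and Tlr9 by 0.71 ± 0.18, and their chaperone Unc93b1 by 0.42 ± 0.08. The Tlr3 and Tlr4 adaptor Ticam1 fell by 0.68 ± 0.10 and the kinase Ikbke by 0.55 ± 0.15; without co-culture 2, or scaled to CPM, 1 gene of this list was lower. Of 20 interferon genes listed, Ifnk was in the table, at 0 to 5.98 in all libraries, and was not tested. With TGF-β 0 genes of these 3 tested lists passed in either direction, against 2.52% of all tested genes. At an unadjusted p under 0.05 in limma there were 2 higher and 3 lower genes. The share of all tested genes was not counted at that threshold. By adjusted p, edgeR called 0 genes of the lists and DESeq2 called 1 lower.

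Restraint and clearance genes gave 3 higher and 2 lower of 12 in co-culture, against 15.9% higher and 15.0% lower over all tested genes. Socs3, an inhibitor of cytokine receptor signaling that acts mainly on interleukin 6 type receptors, had 3762, 4070.3 and 5025 normalized counts in co-culture, 228, 286 and 334 with TGF-β and 196, 284 and 236 in monoculture (4.11 ± 0.17, adjusted p = 7.54e-10). Samhd1, which depletes nucleotides and is mutated in an inherited interferon disease of humans, had 14268, 12891 and 15032 normalized counts in co-culture, 19826, 17064 and 21223 with TGF-β and 27114, 24429.7 and 26769.6 in monoculture and fell both in co-culture (-0.89 ± 0.10, adjusted p = 5.76e-06) and with TGF-β (-0.43 ± 0.10, adjusted p = 0.0274). The RNA editor Adar fell by 0.42 ± 0.09. Dnase2a, which digests DNA in lysosomes, rose by 0.25 ± 0.07. The secreted nuclease gene Dnase1l3 had 58.6, 63.3 and 48.5 normalized counts in co-culture, 6.01, 2.19 and 11.4 with TGF-β and 0 in all 3 libraries in monoculture, so no fold change against monoculture is given. Dnase1l3 met the filter for testing only through the co-culture libraries, so its place among the 3 higher genes was nearly fixed in advance. The Samhd1 call with TGF-β was lost without any 1 of the monoculture libraries and without TGF-β 1 or 2.

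Among 48 other interferon-induced genes 25 fell and 8 rose in co-culture, against 15.0% lower and 15.9% higher over all tested genes. The antigen-processing transporter Tap1 fell by 0.33 ± 0.09, the helicase Helz2 by 1.52 ± 0.22, Ifitm3, which blocks viral entry, by 2.06 ± 0.33, and Trim25, a ligase that activates RIG-I, by 0.88 ± 0.09. The 8 that rose were the guanylate-binding GTPase genes Gbp3 (1.84 ± 0.14), Gbp5 (1.69 ± 0.27) and Gbp7 (1.72 ± 0.14), Ifitm1 (1.34 ± 0.37), Ifitm2 (0.59 ± 0.13), Ccl12 (1.63 ± 0.39), Lgals9 (0.65 ± 0.09) and Sp110 (0.27 ± 0.08). Gbp genes are best known as targets of interferon gamma, whose part in these changes was not tested. Gbp2, also on the list, had 771, 700 and 629 normalized counts in co-culture against 784, 810 and 889 in monoculture. It did not pass (-0.24 ± 0.12, adjusted p = 0.168 in limma). Of the genes linked to interferon gamma above, Ifi47 fell, Irf1, Irf8 and Ifngr2 rose, and Ifi30 did not pass. These few genes do not cover all targets of interferon gamma. Gbp3 had 2007, 1982 and 1557 normalized counts in co-culture, 499.8, 621 and 627 with TGF-β and 578, 464 and 487 in monoculture, with all co-culture libraries above the rest. With TGF-β Trim25 alone passed (-0.36 ± 0.09, adjusted p = 0.0413). Against TGF-β 21 of the 48 were lower and 7 higher in co-culture, beside 11.9% lower and 13.4% higher of all tested genes. The higher count is thus near the share of all tested genes.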

How the data were processed

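RNA of sorted macrophages was sequenced in 9 libraries, 3 per group. The submitters' processing notes name build mm10, R 3.6.1, STAR 2.7.3, bcl2fastq 2.20 and DESeq2 1.24.0; the counting program and its use of strand are not given in the sources used here. The deposited signal values are reads divided by a size factor per library, read from the values themselves: 100% were whole multiples of 1 read (within 0.05), so whole reads were recovered.

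Because the values are scaled, log2 of the value plus 10 was fitted with limma 3.58.1 (trend, robust; R 4.3.3), with 3 contrasts in 1 fit of all 9 libraries. The count-based test in the original plan became an alternative, run with edgeR 4.0.16 and DESeq2 1.42.0 on the recovered reads. Genes with at least 10 in 3 libraries were tested, 16328 of 24607, with Benjamini-Hochberg adjustment and calls at adjusted p under 0.05. Other alternatives were other added values, filters, scalings, a replicate block and leaving out libraries.

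Members and lists were chosen with earlier results of these data known. Members given by rule (22) were, per subfamily, the 2 of highest mean value, per comparison with monoculture the 4 called non-overlapping members of largest change, and every member called higher. Oas2, Oas1b, Rsad2, Ifit3, Slfn1, Slfn5, Rtp4 and the remaining members without a call were given in full after their values were seen, as were Gbp3 and the exceptions of the other lists. Positions are from GENCODE M21 (mm10), in which all 51 members were found. Reads of the antisense gene Slfn5os and of Slfn5 cannot be told apart if strand was not used. 1 gene of the lists is not reported here.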

Additional observations from a re-analysis of the deposited data

How the results depend on the processing

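The member counts were recomputed under 20 other analyses, 1 of them (without replicate 3 of every group) chosen after seeing the data. No log2 fold change of a named member that was called changed sign. For co-culture against monoculture the lower count stayed at 34 to 39 and the higher count at 1, except 2 with values scaled to CPM, where Ifi30 was added, and 1 to 2 when single libraries were left out. For co-culture against TGF-β the lower count was 26 with CPM and 29 to 33 otherwise. For TGF-β against monoculture the count of 5 lower members was 3 with log2 of the value plus 1, 1 with no filter, 9 with DESeq2, 1 with CPM, 3 without replicate 3 of every group and 0 to 7 when single libraries were left out; the cause was not tested. Over all genes DESeq2 called 897 there, against 412 with limma, and leaving out single libraries gave 165 to 939. With the replicate number as a block 39 members were lower in co-culture and 3 with TGF-β, both against monoculture, and 33 were lower in co-culture than with TGF-β. The block took Cmpk2 (adjusted p = 0.0603) and Oasl1 (0.0507) from the calls with TGF-β, added Ifi205 (0.0485) to those in co-culture against monoculture and added Mx2 (0.0373) to those in co-culture against TGF-β. The labels do not say whether a replicate number marks 1 mouse, and the numbers were not taken to pair the libraries: of 9 same-number pairs, 3 had deviations correlated above 0.1 (range -0.147 to 0.372), and not every library correlated best with its own number. In every group replicate 1 had high Ddx3y, a Y-linked gene (10040, 8549 and 8547 normalized counts in co-culture, TGF-β and monoculture), and replicates 2 and 3 had high Xist, so sex went with the number; whether 1 mouse gave all libraries of a number cannot be told apart from a shared sex. Counts of a few reads, as in Slfn1 and Ifi205, limit what depth can show.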

Other observations

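Replicate 3 of monoculture had the highest value of its group in 35 of 46 tested members (76.1%), whereas it was highest in 32.1% of all tested genes. Co-culture 2 had the lowest value of its group in 33 of 46 members (71.7%), against 33.7% of all tested genes. Oas2 and Oas1b, both in the Oas cluster on chromosome 5, were highest in replicate 3 both with TGF-β (3536 and 311) and in monoculture (4562 and 256), whereas their co-culture values were highest in replicate 1 (759.8 and 115). The pattern was not particular to that cluster. It held in Rsad2 (884 in TGF-β 3, 1616 in monoculture 3 and 276 in co-culture 1), in Ifi203 (2909, 3430 and 2065 in the same order) and in Slfn10-ps. Oasl1, Oasl2, Oas1a, Oas1c and Oas1g were also highest in replicate 3 with TGF-β and in monoculture, but not in co-culture 1. Oas3 was highest in TGF-β 3 (3152) and co-culture 1 (293), but in monoculture 2 (4958). Over the 46 members TGF-β 3 was highest of its group in 41.3%, near the 39.0% of all tested genes. Co-culture 1 was highest in 63.0%, against 31.8% of all tested genes. The pattern was noticed in the values and was not tested.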
